A study of Mus musculus with 20 samples.

Results

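The livers of 10 mice given only vehicle were examined for the genes that differed most from animal to animal and for the genes that varied together. They are 10 of the 20 animals of the study, namely every animal of its WT and PXR-KO vehicle groups, 5 in each. WT animals were C57BL/6 mice with the genotype PXR+/+, and PXR-KO animals were C57BL/6NTac mice with the genotype PXR-/-, which lack the pregnane X receptor. All were males, 9 weeks old when dosing began, and received the vehicle, an acidified solution of HPMC and Tween 80, by oral gavage once a day at 0 mg/kg of CMP013, with necropsy at 96 h. Genotype and substrain go together, so neither can be told apart from the other. Each liver was measured on 1 Affymetrix whole-genome mouse array with 45037 probe sets. The deposited value is a ratio to the average of its own vehicle group, so the 2 genotypes are each centred on their own mean and no level can be compared between them. What the ratios keep is the spread within each group. Because the common denominator cancels inside a group, the standard deviation (SD) of the log2 ratios is that of the log2 intensities. The other 10 animals, given 150 mg/kg CMP013, served as a second set of mice in which to look at the same genes.

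Liver expression differs between inbred mice of one age and sex. Hepatocytes follow the daily clock, the last meal and glucocorticoid tone. They switch on acute phase genes when cytokines from macrophages reach them. A piece of liver also holds Kupffer cells (the resident macrophages), endothelium, stellate cells, bile duct and blood cells in proportions that depend on where it was cut. In such bulk samples, fewer cells of a type and less RNA per cell cannot be told apart. According to the paper, food was withdrawn for the last few hours before necropsy, and intake before that was not followed for single animals. It gives RNA integrity as a range for each genotype, lower for the PXR-KO animals. The hour of necropsy and RNA quality of single animals were not used here. The table holds ratios alone, so hepatocyte and other markers could not be set against each other as levels to check the tissue, and a probe set close to background cannot be told from a bright one.

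The spread of a gene was taken as its SD over animals within a group, pooled over both groups with 8 degrees of freedom. With so few animals, the 95% interval of an SD reaches from 0.676 to 1.92 times its value. A total of 18193 genes had a probe set of their own. Their median SD was 0.242 on the log2 scale (0.215 among WT and 0.235 among PXR-KO animals). In the CMP013 groups it was 0.259. The order of genes by SD was broadly shared by the 2 genotypes, with a Spearman rho of 0.66 across all genes, which are not independent replicates. The 910 genes with the largest spread, 1 in 20 of all genes, had an SD above 0.723. Of these, 819 rested on 1 probe set and 91 on 2. The 2 probe sets of a gene offer a check on the measurement, since they read different stretches of the same transcript on the same array. Across the 9010 genes with 2 or more probe sets, the median correlation of the first 2 over animals, with group means removed, was 0.16, so for most genes the 2 probe sets agreed only weakly on which animals were high or low. In the 91 genes of large spread with 2 probe sets the median was 0.48.

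A moderated F test (limma) asked, for each of the 9010 genes, whether the animals of a group differed by more than their 2 probe sets disagreed. It was passed by 76 genes (0.844%) at an adjusted p below 0.05. At an unadjusted p below 0.05, 1075 genes passed (11.9%). The number depended on every animal, since it lay between 20 without PXR-KO animal 1 and 47 without PXR-KO animal 2 when each was left out, and it was 0 without WT animals 3 and 4 and PXR-KO animals 2 and 4, which stood apart on the main axis of variation. The test reads probe set agreement, and the median correlation of the 2 probe sets was accordingly 0.94 among the 76 genes, with a lowest value of 0.83. Their median SD was 0.411, from 0.234 for Rnd3, a small GTPase, to 1.09 for Marco, a scavenger receptor of macrophages. The mice given CMP013 are different animals and allow a look at the same genes. There, 268 of the 9010 genes (2.97%) passed, and among them were 48 of the 76, which is 63.2% of the first set and 17.9% of the second. The median probe set correlation of the 76 genes in those mice was 0.91, against 0.23 over all genes tested, and it exceeded 0.5 for 69 of them.

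**Figure D1:**
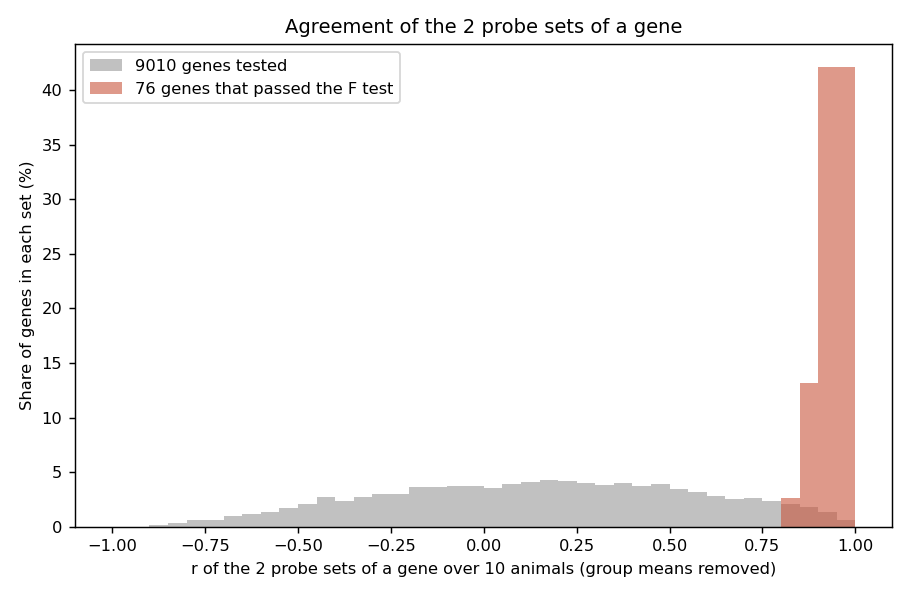
Share of genes (vertical axis, percent of each set) by the correlation of a gene's 2 probe sets over the 10 vehicle animals (horizontal axis), for the 9010 genes tested in grey and the 76 that passed the F test in red. The grey values spread on both sides of 0 with a median of 0.16, while the red values all lie at 0.83 or above, as the test requires.

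The 15 genes with the largest SD among the 76 were Marco, Bcl6, Usp2, Gm6958, Saa1, Mt1, Cdkn1a, Onecut1, Foxq1, Crispld1, Rgs16, Cxcl13, Asns, Slc25a30 and Dpp6. They hold a macrophage receptor, a clock output gene, an acute phase protein, a metallothionein, the cell cycle inhibitor Cdkn1a, the amino acid enzyme Asns (asparagine synthetase) and the transcription factors Bcl6, Onecut1 and Foxq1. Not all of these calls were stable. Crispld1 passed in 4, Cxcl13 and Dpp6 each in 8 and Rgs16 in 9 of 22 alternative settings, and Mt1 in 6 of 21. The other 10 genes passed in 14 to 19 of 21 or 22. At the other end were the 5 tested genes with the smallest SD. They were Ndufb11, a subunit of respiratory complex I, at 0.0214, and Qdpr, which recycles tetrahydrobiopterin, at 0.0254. Next came Naca, a chaperone of nascent chains, at 0.0278, and Ide, the insulin-degrading enzyme, and Ghitm, a mitochondrial membrane protein, both at 0.0288. Their 2 probe sets correlated at 0.06, -0.23, -0.26, -0.90 and -0.46 in the same order. Where the 2 moved in opposite directions, their average hid part of the spread.

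To see which functions varied, 39 lists of genes were used, 27 for functions and 12 for cell types. They had been assembled with earlier results of these data known, and they are described by counts and medians without a test. Between them they held 499 measured genes, of which 245 could be tested and 18 passed the F test (7.35%, against 0.844% of all genes). For each list the median SD tells how much its members varied, and the mean of all pairwise correlations between members tells how far they varied together. Over all pairs of the 18193 genes that mean was 0.005, so a list of unrelated genes sits near 0. By this measure 11 lists lay above 0.25, and 9 of the 11 also did so in the CMP013 animals.

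**Figure D2:**
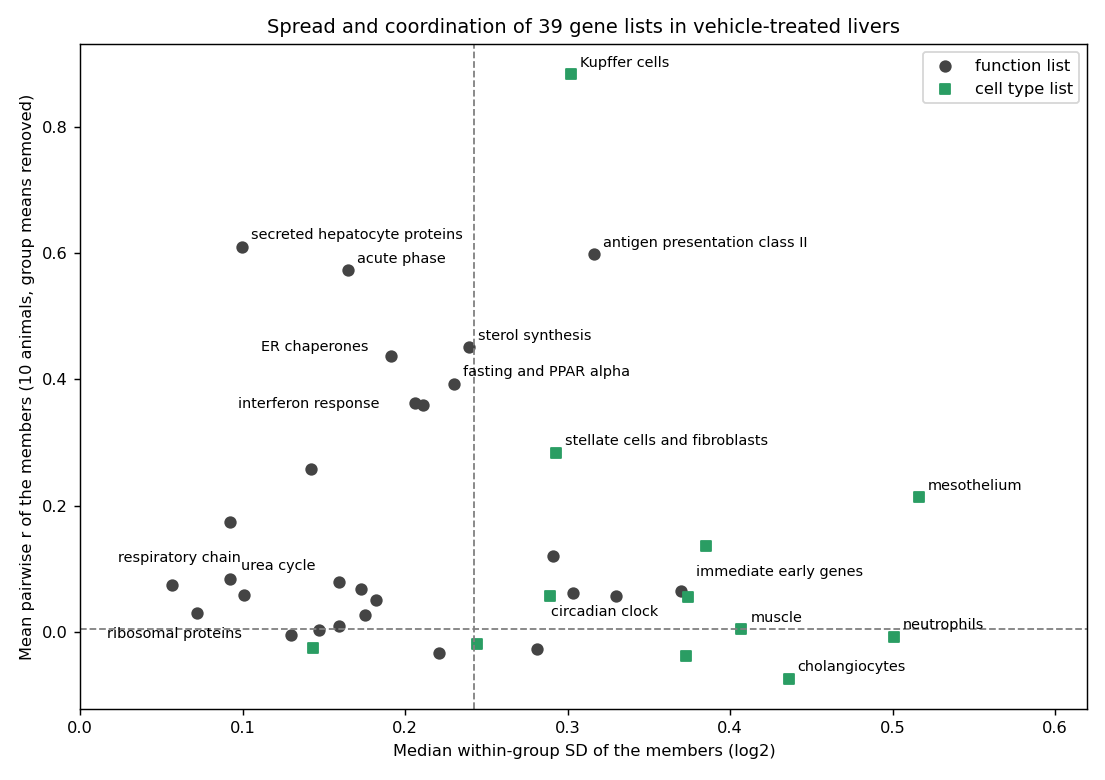
Each point is 1 gene list, with the median within-group SD of its members on the horizontal axis (log2) and the mean pairwise correlation of its members on the vertical axis. Black circles are function lists, green squares are cell type lists, and dashed lines mark the median SD of all genes (0.242) and the mean correlation of all gene pairs (0.005). Kupffer cell markers lie highest at 0.883, whereas neutrophil, cholangiocyte and muscle markers varied widely with a mean correlation close to 0.

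Housekeeping functions and the urea cycle varied least. The median SD was 0.0567 for 20 subunits of the respiratory chain, 0.0717 for 14 ribosomal proteins, 0.0921 for 21 proteasome subunits and 0.0924 for 10 genes of the urea cycle and its transporters. Drug metabolism, the function that PXR governs, was nearly as even in these mice, with a median SD of 0.101 over 22 genes. Cyp3a11, the main PXR-responsive P450, had an SD of 0.0482, and its highest animal exceeded its lowest by 1.06-fold in WT and 1.11-fold in PXR-KO mice. Cyp2b10, the classical CAR target, was more variable at 0.432, with a range of 2.29-fold in WT and 1.96-fold in PXR-KO mice and an adjusted p of 0.306 in the F test. The 2 genes correlated at -0.759, which missed the threshold after adjustment over the 27 pairs described below (adjusted p = 0.0506, exact permutation test).

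Kupffer cells gave the most coordinated list. Its 12 genes include Clec4f and Timd4, which mark resident Kupffer cells, Vsig4 and the C1q chains of the complement system, Cd163, the haemoglobin scavenger, and Adgre1, which encodes the F4/80 antigen. All 66 pairs of members correlated positively, with r from 0.65 to 0.99 and a mean of 0.883 (0.797 among WT and 0.925 among PXR-KO animals). Clec4f stood at log2 ratios of -0.02, 0.17, -0.23, 0.04 and 0.02 in WT animals 1 to 5 and at -0.17, -0.33, -0.07, 0.11 and 0.40 in PXR-KO animals 1 to 5. Cd163 was lowest in PXR-KO animal 2 at -0.99 and highest in PXR-KO animal 5 at 0.52, and among WT animals it was lowest in animal 3 at -0.30. For both genes, WT animal 3 and PXR-KO animal 2 were the lowest of their groups and PXR-KO animal 5 was the highest. The mean of the 12 genes ran from -0.324 in WT animal 3 to 0.222 in WT animal 2, and from -0.450 in PXR-KO animal 2 to 0.668 in PXR-KO animal 5. Leaving out PXR-KO animal 5 gave a mean correlation of 0.782, the lowest with any 1 animal left out. In the CMP013 animals it was 0.361.

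Marco stood apart from the other Kupffer markers by the size of its spread. Its log2 ratios were -0.62, 0.16, -1.12, 1.00 and 0.01 in the WT animals and -1.66, -1.13, -1.01, -0.44 and 1.72 in the PXR-KO animals. The highest animal exceeded the lowest by 4.36-fold in WT and 10.4-fold in PXR-KO mice. The SD was 1.09 (95% interval 0.737 to 2.09), compared with 0.18 to 0.433 for the other 11 markers, and the F test gave an adjusted p of 0.0085. A clustering by correlation of the genes that passed the test put Marco in a group of 5. The others were Cxcl13, a chemokine that attracts B cells, Fyb, an adaptor of haematopoietic cells, Atxn1, and Cd44, the hyaluronan receptor. The mean correlation of these 5 genes was 0.690 over the vehicle animals, 0.945 among PXR-KO and 0.0744 among WT animals, and 0.258 in the CMP013 animals. This group was formed after the values had been seen and carries no test. Of the 3 Kupffer markers that could be tested, Csf1r, the receptor for the macrophage growth factor, had an adjusted p of 0.189, and C1qb of 0.174.

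The markers of mesothelium, neutrophils, cholangiocytes and muscle varied more than the typical gene. The neutrophil, cholangiocyte and muscle members showed little or no relation to each other on average. The median SD was 0.516 for 7 mesothelial, 0.501 for 9 neutrophil, 0.436 for 6 cholangiocyte and 0.407 for 11 muscle genes. The mean pairwise correlations were 0.214, -0.007, -0.074 and 0.004 in the same order. Of the 21 pairs of mesothelial genes 14 correlated positively, with a median of 0.38 over all 21. Upk3b and Wt1 correlated at 0.75, whereas Upk1b correlated negatively with every other member. In the CMP013 animals the mean of the mesothelial list was 0.082. None of the members that could be tested on these 4 lists passed the F test, which at 0.844% over all genes says little about so few. The list of stellate cells and fibroblasts had a mean correlation of 0.284 (0.436 among WT and 0.0406 among PXR-KO animals). In it, the fibrillar collagens were the closest to each other. Col1a1 and Col3a1 correlated at 0.97, and Col1a2 with each of them at 0.89 and 0.93. Col1a2 was highest in WT animal 1 at a log2 ratio of 0.59 and lowest in WT animal 4 at -0.78. None of the 10 members tested here passed the F test either.

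Genes of MHC class II, which present antigen on B cells, dendritic cells and macrophages, formed another block. H2-Aa, the alpha chain of the A molecule, had log2 ratios of 0.20, 0.43, -0.36, -0.32 and -0.33 in the WT animals and 0.12, -0.26, 0.28 and -0.25 in PXR-KO animals 1, 2, 4 and 5, with PXR-KO animal 3 at the group mean. WT animals 1 and 2 and PXR-KO animals 1 and 4 were on the high side. H2-Aa passed the F test (adjusted p = 0.0458, limma), with an SD of 0.307, and did so in 2 of 21 alternative settings. Its partner, the beta chain gene H2-Ab1, followed it with r = 0.971. This was 1 of 27 pairs, 1 from each function list, that were tested by permuting the animals within genotype in all 14400 ways. The two-sided exact p was 0.000764, or 0.0075 after adjustment over the 27 pairs. The correlation was 0.98 among WT and 0.969 among PXR-KO animals, and 0.956 in the CMP013 mice. The rank correlation was 0.842 (adjusted p = 0.055 in the same permutation test), and r was 0.96 without the 2 animals farthest from the median. H2-Eb1 and Cd74, the invariant chain, went with them, with r = 0.88 and 0.94 to H2-Aa. Ciita, the gene of the class II transactivator, correlated with H2-Aa at 0.11, and its own 2 probe sets at 0.13. Over the 10 animals the mean of the class II list correlated with that of pancreatic acinar cells at 0.74, interferon response genes at 0.651, T and NK cells at 0.621, B and plasma cells at 0.295 and Kupffer cells at 0.277. Their part in the class II differences was not tested.

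Acute phase genes are made by hepatocytes in response to interleukin-6 and interleukin-1, and they showed a spread that was wide for a few members and small for the rest. Saa1 encodes serum amyloid A. Its log2 ratios were -0.54, -0.09, -0.66, 0.59 and 0.63 in the WT animals, and -0.77, -0.46, -0.24 and 1.94 in PXR-KO animals 1 to 4, with PXR-KO animal 5 at the group mean. PXR-KO animal 4 was above every other PXR-KO animal, and WT animals 4 and 5 were above the other WT animals. The SD was 0.87 and the F test gave an adjusted p of 0.000297, the lowest of the 9010 genes. Lcn2, lipocalin 2, reached 1.61 and Orm2, an orosomucoid, 1.07 in the same PXR-KO animal. Steap4, a metalloreductase, and Saa4, the constitutive serum amyloid A, passed the test as well (adjusted p = 0.0219 and 0.0298), with SDs of 0.314 and 0.28. Saa4 passed in 6 and Steap4 in 12 of 22 alternative settings. These 2 genes correlated at 0.94. The abundant plasma proteins of the list hardly varied, with an SD of 0.0455 for Fga and 0.0393 for Fgb, the fibrinogen alpha and beta chains, and of 0.0853 for Hp, haptoglobin. Even so, Hp and Hpx, hemopexin, correlated at 0.97. Of the 171 pairs of acute phase genes 161 correlated positively, with a mean of 0.573 (0.24 among WT and 0.704 among PXR-KO animals). It fell to 0.283 without PXR-KO animal 4 and was 0.549 in the CMP013 animals.

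Saa1 and Saa2 were the most tightly linked pair of the 27. They correlated at 0.976, with an exact permutation p of 6.9e-05, the smallest that 14400 orders can give, and an adjusted p of 0.00188. The rank correlation was 0.964, with the same adjusted p. Without the 2 animals farthest from the median of Saa1, PXR-KO animal 4 and WT animal 5, r was 0.97. The genes are neighbours with near-identical sequences, and a probe set of one may read transcripts of the other, so the correlation cannot be taken as 2 separate measurements. The likeness extends upstream of the transcripts. Their promoter windows, from 250 bases before to 50 bases after the start of transcription, are shown from RefSeq on GRCm38.p6, with capitals for bases that have no identical partner in a pairwise alignment. The Saa1 window is chr7:46742931-46743230 on the minus strand and the Saa2 window chr7:46751583-46751882 on the plus strand, so the genes point away from each other across 8352 bases.
Saa1: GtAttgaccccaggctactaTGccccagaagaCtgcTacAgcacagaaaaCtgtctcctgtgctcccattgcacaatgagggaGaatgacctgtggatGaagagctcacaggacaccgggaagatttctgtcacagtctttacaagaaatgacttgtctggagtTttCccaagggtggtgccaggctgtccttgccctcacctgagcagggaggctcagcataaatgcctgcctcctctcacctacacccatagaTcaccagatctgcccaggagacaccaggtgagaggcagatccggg
Saa2: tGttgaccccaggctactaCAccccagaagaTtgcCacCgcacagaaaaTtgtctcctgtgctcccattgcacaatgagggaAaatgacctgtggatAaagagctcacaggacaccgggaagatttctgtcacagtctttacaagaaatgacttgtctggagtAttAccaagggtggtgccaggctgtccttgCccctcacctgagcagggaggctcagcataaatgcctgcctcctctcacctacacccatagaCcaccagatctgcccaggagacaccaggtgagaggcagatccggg
Of the 300 bases, 287 (95.7%) were identical.

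Genes of the daily clock lay on opposite sides of their mean in the same animals. Dbp is a PAR bZIP factor driven by CLOCK and BMAL1, and its log2 ratios were 0.17, -0.92, -0.14, 0.67 and 0.02 in the WT animals and 0.66, -0.26, 0.35, -0.23 and -0.94 in the PXR-KO animals. The range was 3.0-fold in WT and 3.04-fold in PXR-KO mice, and the F test gave an adjusted p of 0.000813. WT animal 2 and PXR-KO animal 5 were the low animals, and WT animal 4 and PXR-KO animal 1 the high ones. Arntl, which encodes BMAL1 and peaks opposite to Dbp in the day, ran against it. Its log2 ratio was highest in WT animal 2 at 0.51 and in PXR-KO animal 5 at 0.34, and lowest in WT animal 4 at -0.45. The pair correlated at -0.886 (exact permutation p = 0.00208, adjusted p = 0.0141), at -0.92 among WT and -0.903 among PXR-KO animals, and at -0.686 in the CMP013 animals. The rank correlation was -0.83 (adjusted p = 0.0591 in the permutation test), and r was -0.786 without WT animals 2 and 4, the farthest from the median. The 2 probe sets of Arntl barely agreed (r = 0.04). With Dbp, the more variable of them correlated at -0.84 and the other at -0.32.

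Several other clock genes fell in with this order, and some did not. Per3 and Dbp correlated at 0.98, Nr1d1 (REV-ERB alpha) and Dbp at 0.88, and Arntl and Per3 at -0.93. With Dbp, the list members Tef, Hlf, Bhlhe41, Nfil3 and Cry1 correlated at 0.45, 0.32, -0.03, -0.11 and -0.24. Of the 2 probe sets of Per3, one gave 0.97 with Dbp and the other -0.33. Usp2, a deubiquitinase under clock control, had the largest spread of the list, with an SD of 0.893. Its log2 ratios were -0.77, -1.69, -1.0, 0.78 and 0.17 in the WT animals and 0.65, -1.46, -0.30, 0.22 and -0.43 in the PXR-KO animals, a range of 5.57-fold in WT and 4.32-fold in PXR-KO mice (adjusted p = 0.0085 in the F test). Usp2 and Dbp correlated at 0.69, namely 0.88 among WT and 0.48 among PXR-KO animals. Ciart, a repressor of the clock, followed Usp2 (r = 0.93). The list mean hides the order that some members shared with Dbp, since positive and negative correlations cancel in it and other pairs lay near 0. The mean pairwise correlation of the 17 genes was 0.062, and single pairs ranged from -0.93 to 0.98. Among the 76 genes, those grouped with Usp2 and Dbp, in the same way and again without a test, were Gpcpd1, Rab27a, Coq10b and Sult1d1. The mean correlation was 0.74 between the 6 and 0.272 in the CMP013 animals. Rab27a passed the F test in 4, Sult1d1 in 5 and Gpcpd1 in 11 of 22 alternative settings, and Coq10b in 11 of 21.

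Glucocorticoid-responsive genes did not vary as a single block. Their median SD was 0.291 and their mean pairwise correlation 0.12 over 12 genes, with single pairs from -0.74 to 0.93. The metallothioneins Mt1 and Mt2, which bind zinc and respond to zinc as well as to glucocorticoids, were its most variable members. Mt1 had log2 ratios of 0.54, -0.94, -0.05, -0.14 and -0.30 in the WT animals and 0.45, 0.79, -1.69, 0.14 and -0.99 in the PXR-KO animals. The lowest values were in WT animal 2 and PXR-KO animal 3, where Mt2 was lowest too, at -1.45 and -1.89. Mt1 passed the F test with an SD of 0.829 and an adjusted p of 0.0372, and Mt2 had 1 probe set and an SD of 0.922. The 2 genes correlated at 0.93 (0.92 among WT, 0.94 among PXR-KO animals and 0.74 in the CMP013 animals). They lie close together on chromosome 8, and their promoter windows are shown because both hold the letters of the metal response element bound by MTF1. Windows are from RefSeq on GRCm38.p6 and run from 250 bases before to 50 bases after the start, and capitals mark TGCACNC or TGCGCNC on either strand. The Mt1 window is chr8:94178839-94179138 and the Mt2 window chr8:94172368-94172667, both on the plus strand.
Mt1: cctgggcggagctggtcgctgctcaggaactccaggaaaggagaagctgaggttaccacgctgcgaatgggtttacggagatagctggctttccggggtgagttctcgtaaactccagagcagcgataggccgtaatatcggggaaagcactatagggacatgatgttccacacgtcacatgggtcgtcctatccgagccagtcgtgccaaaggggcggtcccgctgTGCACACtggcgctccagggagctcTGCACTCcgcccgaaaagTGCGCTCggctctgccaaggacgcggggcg
Mt2: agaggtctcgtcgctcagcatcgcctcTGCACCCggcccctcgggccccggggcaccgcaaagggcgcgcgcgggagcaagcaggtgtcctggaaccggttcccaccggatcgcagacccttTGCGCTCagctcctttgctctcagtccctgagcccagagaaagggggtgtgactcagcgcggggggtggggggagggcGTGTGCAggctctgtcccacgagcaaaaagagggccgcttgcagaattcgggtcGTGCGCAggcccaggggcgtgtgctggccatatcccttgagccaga
There were 3 matches in Mt1 and 4 in Mt2. Of all 32851 promoter windows, 25.7% held at least 1 match and 7.11% at least 2.

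Cdkn1a, the p21 inhibitor of cyclin-dependent kinases, is on the lists of glucocorticoid and p53 targets. Its log2 ratio was 0.73 and -0.73 in WT animals 3 and 4, and it went from -1.77 in PXR-KO animal 3 to 1.00 in PXR-KO animal 5, a 6.79-fold range (adjusted p = 0.00464 in the F test). Mdm2, another p53 target, had an SD of 0.141, and the pair correlated at 0.538 (adjusted p = 0.277, exact permutation test). Gadd45g, a stress-induced growth arrest gene, had an SD of 0.8 on a single probe set. Fkbp5, a glucocorticoid target, had log2 ratios of -0.92 in WT animal 2 and 0.79 in WT animal 4, yet its 2 probe sets correlated at -0.17 and its adjusted p was 0.788. Within this list the large ranges therefore did not all have the backing of a second probe set.

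**Figure D3:**
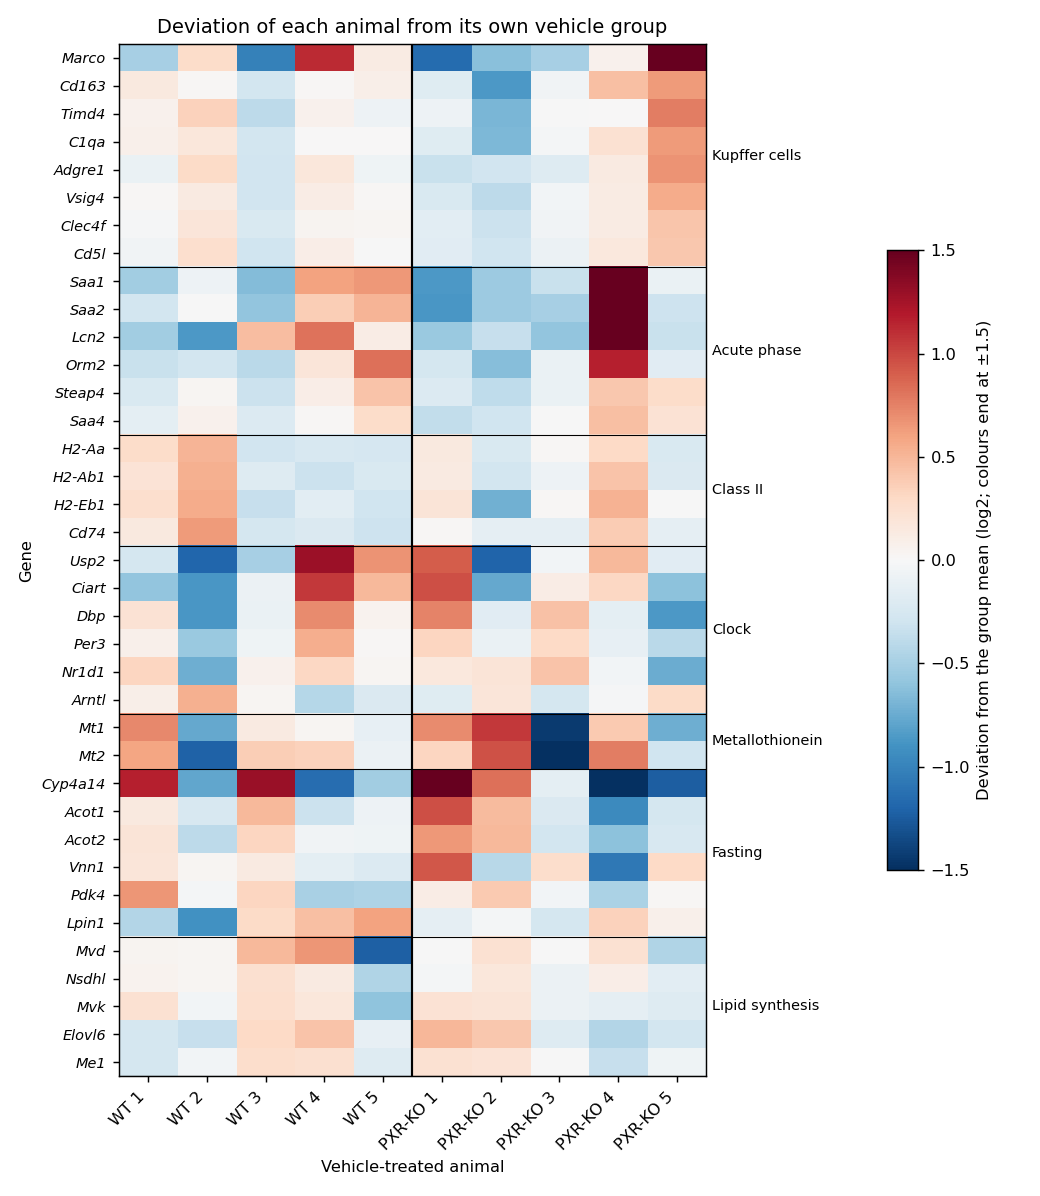
Deviation of each vehicle animal (columns, 5 WT then 5 PXR-KO) from the mean log2 ratio of its own group, for members of the gene lists (rows, in blocks by list). Red is above and blue below the group mean, and colours end at 1.5 in either direction. PXR-KO animal 5 is high for the Kupffer markers, PXR-KO animal 4 for the acute phase genes, and Arntl runs against the clock genes above it.

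The fasting and PPAR alpha list held the single most variable gene among all lists. Cyp4a14, a fatty acid omega-hydroxylase induced by PPAR alpha, had log2 ratios of 0.85, -1.10, 0.98, -1.45 and -0.84 in the WT animals and 1.92, -0.37, -1.34, -3.75 and -2.44 in the PXR-KO animals. The range was 5.38-fold in WT and 50.9-fold in PXR-KO mice, and the SD was 1.72, on 1 probe set and so without the F test. Acot1 and Acot2, acyl-CoA thioesterases of the same pathway, followed Cyp4a14 at 0.97 and 0.91. Acadm, which encodes a beta-oxidation enzyme of small spread (0.0887), correlated with Acot2 at 0.91, and Cpt1a, of carnitine shuttling, with Ehhadh, a peroxisomal enzyme, at 0.94. Of the 8 members tested, Vnn1 (pantetheinase) and Lpin1 passed the F test, with adjusted p = 0.0329 and 0.00165. Vnn1 passed in 7 of 21 alternative settings. The list mean was highest in PXR-KO animal 1 at 0.471 and lowest in PXR-KO animal 4 at -0.449, the animal with the highest acute phase mean of 0.555. Over the 10 animals the means of both lists correlated at -0.788, given here as a description. Cyp4a14 and Pdk4, the pair fixed for this list, correlated at 0.672 (adjusted p = 0.0673, exact permutation test).

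Lpin1, a phosphatidate phosphatase and coactivator, followed some fasting genes and not others. Its log2 ratios were -0.45, -0.92, 0.27, 0.44 and 0.59 in the WT animals and -0.13, -0.01, -0.26, 0.36 and 0.09 in the PXR-KO animals. WT animals 1 and 2 were low and WT animals 3 to 5 high. It correlated at 0.65 with Angptl4, an inhibitor of lipoprotein lipase, at 0.59 with the coactivator gene Ppargc1a and at -0.53 with Pdk4. With Angptl4 and Ppargc1a the correlation was 0.92 and 0.89 among WT animals but -0.60 and -0.96 among PXR-KO animals, a difference that was not tested. Lpin1 grouped among the 76 genes, in the same way and without a test, with St3gal5, Fam214a, Slc25a51 and Pim3. The mean correlation of these 5 was 0.862 in the vehicle animals, 0.95 among WT and 0.553 among PXR-KO animals, and 0.527 in the CMP013 animals.

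Lipid synthesis varied modestly. The 17 sterol synthesis genes had a median SD of 0.239 and a mean correlation of 0.451, which was 0.613 among WT and 0.111 among PXR-KO animals. The difference between genotypes was not tested. Mvd, which makes isopentenyl diphosphate, passed the F test (SD 0.556, adjusted p = 0.0177), with log2 ratios of 0.18, 0.17, 0.63, 0.80 and -1.08 in the WT animals and between -0.43 and 0.25 in the PXR-KO animals. WT animal 5 was the low one. It was also the lowest WT animal for Sqle, Nsdhl, Mvk and Dhcr7, at -0.67, -0.46, -0.51 and -0.33. Without WT animal 5 the mean correlation of the list was 0.099. Nsdhl and Mvd correlated at 0.95. Among the genes of fatty acid synthesis, Elovl6, the elongase that makes stearate, passed the F test (SD 0.387, adjusted p = 0.0085) and correlated at 0.89 with malic enzyme (Me1) and at 0.82 with Pklr, the liver pyruvate kinase. Scd1 had an SD of 0.0934. Of the bile acid genes Cyp7a1, the rate-limiting enzyme of the classical pathway, passed (SD 0.419, adjusted p = 0.0163), and its log2 ratios reached from -0.73 to 0.42 in the PXR-KO and from -0.32 to 0.46 in the WT animals. It showed no relation to Cyp8b1 that the permutation test could detect (r = -0.0224, adjusted p = 0.948).

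Stress and immune programmes differed in how far they were shared. The ER chaperones had a mean correlation of 0.437, led by Creld2 and Manf (r = 0.96) and by Hspa5 (BiP) and Hsp90b1 (r = 0.92). None of their 9 tested members passed the F test, which at 0.844% over all genes says little about so few. The mean of this list correlated at 0.823 with that of the acute phase list. The cytosolic heat shock genes had a mean correlation of 0.258 (0.392 among WT and -0.0133 among PXR-KO animals). Among them Hspa1b, the inducible HSP70, passed the F test (adjusted p = 0.00415), with a log2 ratio of -0.28, 0.33, -0.41, -0.41 and 0.55 in the WT animals and -0.67 to 0.40 in the PXR-KO animals. Interferon response genes had a mean correlation of 0.363, namely 0.602 among WT and 0.0327 among PXR-KO animals. None of 9 tested members passed, which at 0.844% over all genes again says little. WT animal 3 was lowest for Ifit3 at -0.40, Rsad2 at -0.46 and Ifit2 at -0.78, and WT animal 2 was highest for Rsad2 at 0.34. The immediate early genes Fos and Egr1, which rise within minutes of handling or injury, had SDs of 0.59 and 0.718, each on 1 probe set. They correlated at 0.713 (adjusted p = 0.0571, exact permutation test).

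**Figure D4:**
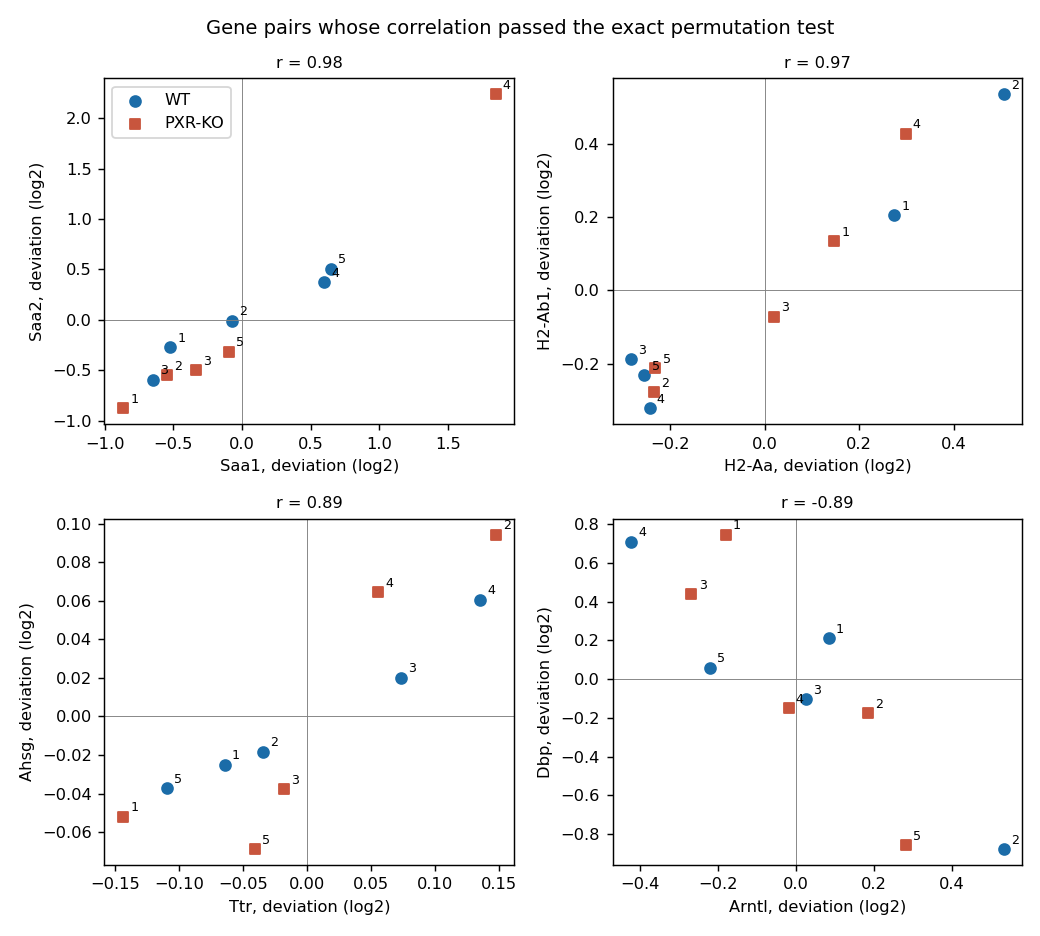
The 4 gene pairs whose correlation passed the exact permutation test after adjustment over 27 pairs. Each point is an animal with its number, blue circles for WT and red squares for PXR-KO, and both axes give the deviation from the group mean (log2). Saa1 with Saa2, H2-Aa with H2-Ab1 and Ttr with Ahsg rise together, and Dbp falls as Arntl rises.

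The fourth pair past the threshold came from the plasma proteins that hepatocytes secrete. Ttr (transthyretin) and Ahsg (fetuin A) correlated at 0.888 (exact permutation p = 0.000833, adjusted p = 0.0075). The rank correlation was 0.794 (adjusted p = 0.055 in the permutation test), and r was 0.765 without PXR-KO animal 2 and WT animal 4, the farthest from the median. Both varied little, with SDs of 0.105 and 0.0595. Ttr ranged from -0.13 to 0.12 in the WT and from -0.15 to 0.14 in the PXR-KO animals. Of the 91 pairs among the 14 secreted proteins, 86 correlated positively, with a mean of 0.61 (0.334 among WT and 0.719 among PXR-KO animals). Alb, Apoa1, Apoa2 and Apoc3 were, like Ttr, highest in WT animal 4 among WT and in PXR-KO animal 2 among PXR-KO animals. None of the 5 members tested passed the F test, which at 0.844% over all genes says little about so few.

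These proteins lay along the main axis of variation, the first principal component of the deviations of all 18193 genes, which held 25.97% of the variance against 12.95% for the second. WT animals 3 and 4 scored -19.2 and -23.6, and PXR-KO animals 2 and 4 scored -36.3 and -23.8. The other 6 animals scored from 6.21 to 27.3, so the animals fell on 2 sides with a gap between them. The 4 animals on the low side also had the lowest array medians, between -0.026 and -0.020 on the log2 scale, compared with -0.010 to 0.012 for the others. The part of array signal in the axis was not tested. The secreted proteins had a median correlation with the axis of -0.885 and so were higher in those 4 animals. For the acute phase list the median correlation with the axis was -0.552. On the other side were the mesothelial markers at 0.669 and the respiratory chain at 0.603. Members of the respiratory chain list had a mean pairwise correlation of only 0.074. Over all genes the median was 0.071.

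Among the 76 genes, 46 had a correlation with the axis between -0.5 and 0.5, so most did not follow it. Those at the positive end were Rnpc3, a protein of the minor spliceosome, Ctbs, a lysosomal chitobiase, Ptbp3, a splicing regulator, Mzt1, Hikeshi, Zkscan6, Mvp and Pgm2l1. Mzt1 passed the F test in 4, Ptbp3 and Hikeshi each in 5 and Pgm2l1 in 6 of 22 alternative settings. Rnpc3, Ctbs, Zkscan6 and Mvp passed in 13 to 16 of 21 or 22. Rnpc3 had log2 ratios of -0.34 and -0.30 in WT animals 3 and 4 and -0.94 and -0.54 in PXR-KO animals 2 and 4, whereas the other 6 animals lay between -0.09 and 0.46. At the negative end were Bcl6, Dpp6, Crispld1, Mvd, Avpr1a, Pim3, Slc45a3 and Mt1, with correlations from -0.874 for Bcl6 to -0.47 for Mt1. Slc45a3 (-0.475) and Mt1 are thus among the 46 genes that did not follow the axis. Bcl6 encodes a transcriptional repressor that takes part in the growth hormone control of sex-biased liver genes. Its log2 ratios were 0.31 and 1.25 in WT animals 3 and 4 and 0.67 and 1.65 in PXR-KO animals 2 and 4, and between -1.14 and -0.14 in the other 6 (adjusted p = 0.00464 in the F test). The 4 animals and the others did not overlap for either gene. Rnpc3 and Bcl6 were shown because they had the highest and lowest correlation with the axis among the 76. Over all 18193 genes, 276 correlated with the axis above 0.9 and 140 below -0.9. The axis was itself computed from all these genes and the 4 animals were set apart by it, so the lack of overlap is a description.

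**Figure D5:**
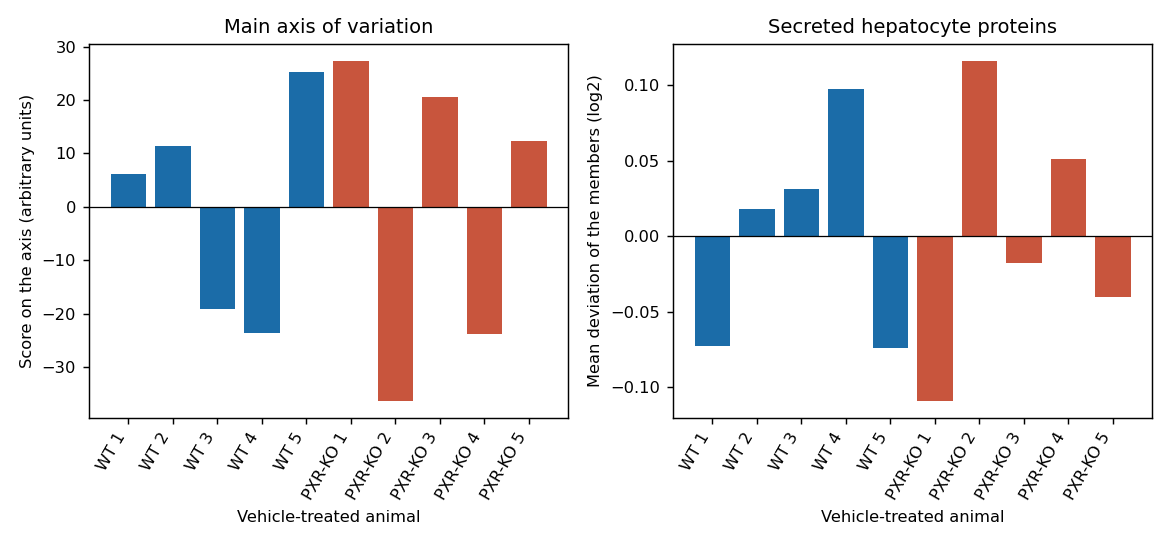
Score of each vehicle animal on the main axis of variation (left, arbitrary units) and the mean deviation of 14 secreted hepatocyte proteins (right, log2), with WT animals in blue and PXR-KO animals in red. WT animals 3 and 4 and PXR-KO animals 2 and 4 score below 0 on the left and above 0 on the right, where WT animal 2 also lies slightly above 0.

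With those 4 animals left out, the median SD of all genes was 0.197 instead of 0.242. The 4 had been set apart by an axis computed from these same deviations, so the lower SD follows in part from that choice. No gene passed the F test at an adjusted p below 0.05 in the remaining 6 animals, and 685 passed at an unadjusted p below 0.05. Of the 76 genes, 68 did. The mean correlation was 0.94 for the Kupffer list, 0.883 for class II, 0.587 for sterol synthesis, 0.461 for the secreted proteins, 0.442 for the acute phase and 0.361 for the fasting list. For the interferon response list it fell to 0.188, from 0.363 with all vehicle animals. Saa1 and Saa2 then correlated at 0.998, H2-Aa and H2-Ab1 at 0.984, Arntl and Dbp at -0.862, and Ttr and Ahsg at 0.352. No adjusted p could pass with 6 animals, for which the smallest permutation p is 0.0278. Within a genotype alone, 65 of the 76 genes had an unadjusted p below 0.05 in WT and 68 in PXR-KO animals, and 57 had it in both. Over all genes tested, the shares were 7.88% and 8.14%. The 76 genes had been chosen by the F test over all the vehicle animals, these included. Their counts in the 6 animals or within a genotype are therefore no separate check.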

How the data were processed

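Livers of 10 vehicle-treated mice (5 WT, 5 PXR-KO), 1 array each, were analysed, with 10 CMP013-treated mice as a second set. The authors deposited, per array, the log10 ratio of each intensity to the average of its own genotype's vehicle group, made in Rosetta Resolver 7.2. Depth has no meaning for arrays, and the number of animals limits the precision. The deposited log10 values were converted to log2. Where a gene had several probe sets naming it alone, the first 2 by suffix and number were used. Animals were compared within genotype with limma 3.58.1 (R 4.3.3), the 2 probe sets being repeated measures, by a moderated F test with 8 and 8 degrees of freedom and Benjamini-Hochberg adjustment. Two-sided exact permutation tests of 27 gene pairs used 14400 orders and the same adjustment. Each p-value refers to animals within these groups and says nothing on repeat arrays of a liver, which were not made. Members, lists and pairs were chosen with earlier results of these data known. Genes were named when they had the 15 largest SDs among those that passed, led a list, lay at the ends of the axis, had the 5 smallest SDs or formed a tested pair. Other list members were named after their values were seen. Members without a probe set of their own were not analysed here. Alternatives covered scaling, choice of probe sets, moderation, filters, a replicate block and omitted animals. The scripts were tested on simulated data.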

Additional observations from a re-analysis of the deposited data

Results flagged for a closer look

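In groups of 5, the gap of the extreme animal to its neighbour, divided by the range of the group, is expected to exceed 0.71 in about 1 of 20 groups by chance, and it did so in 8 of 202 gene and group combinations. PXR-KO animal 4 was high for Saa1 (gap 0.716, log2 ratio 1.94, the others from -0.77 up to the average of their group) and for Saa2 (gap 0.819, 1.93 against -1.19 to -0.62 in the others), and low for Qdpr (gap 0.713, -0.06). PXR-KO animal 2 was low for Dnajb1, a heat shock co-chaperone (gap 0.721, -0.15), and for Ttll7, a tubulin polyglutamylase (gap 0.727, -1.26 against -0.17 to 0.24). PXR-KO animal 1 was high for Cox4i1, of respiratory complex IV (gap 0.768, 0.06). WT animal 3 was low for the interferon response gene Ifit3 (gap 0.809, -0.40 against -0.01 to 0.09), and WT animal 5 was low for the topoisomerase Top2a (gap 0.748, -0.71 against 0.01 to 0.25).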

How the results depend on the processing

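Shifting each array to a common median, quantile normalization, the last 2 probe sets, robust moderation and log2(ratio + 0.1) gave 73, 65, 91, 68 and 78 genes in place of 76, of which 73, 62, 57, 68 and 76 were among the 76. Without probe sets marked as shared or cross-reacting 30 of 7906 genes passed and 8 list genes in place of 18, without moderation 228 and 33, and with an SD of at least 0.2 required 11 of 4855 and 7. Leaving out an animal gave 20 to 47 genes (36, 26, 39, 33 and 28 without WT animals 1 to 5, and 20, 47, 38, 36 and 28 without PXR-KO animals 1 to 5) and 10 to 15 list genes. Without the 4 animals, and in WT or PXR-KO animals alone, 0 genes and 0 list genes passed in limma. The unadjusted counts were 685, 710 and 733. With fewer animals there are fewer degrees of freedom. Leaving out a CMP013 animal gave 105 to 165 genes in place of 268.

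The replicate block left 15 genes and 5 list genes. Animals with the same number in both genotypes correlated at 0.071, -0.105, -0.113, 0.18 and 0.109, so the numbers were not taken as pairs. The median SD was 0.197 without the 4 animals, against 0.242, a drop that follows in part from how the 4 were chosen. The tested pairs that passed numbered 3 to 7 with each animal left out, 7 being without WT animal 3, and 0 without the 4 animals, where none could pass. Arntl and Dbp had adjusted p = 0.0531, 0.0539 and 0.0586 in the permutation test without WT animal 2, WT animal 4 and PXR-KO animal 5. The main axis of variation held 23.5% after quantile normalization. The 4 pairs that passed kept their direction in these settings, whereas of the other 23 pairs 5 changed sign without the 4 animals and 5 without the 2 animals farthest from the median. For the 50 named genes that passed, the call was kept in 564 and lost in 517 of 1081 combinations of gene and setting, and 5 combinations gained a call for genes that had not passed. The cause of the other changes was not tested.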
